A study of Mus musculus with 20 samples.

Results

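The AP-1 transcription factors of mouse T cells were followed at the level of RNA while the cells were held with IL-2 or with the variant IL-2-REH. The members were the rows of the FOS family (Fos, Fosb, Fosl1 and Fosl2), the JUN family (Jun, Junb and Jund) and the BATF family (Batf and Batf3), with the transcript that held most reads over all libraries standing for each gene. These are 9 of 23992 gene symbols. Tregs had been sorted from the spleen and lymph nodes of B6-Foxp3EGFP mice by GFP, and CD8+ T cells had been isolated from C57BL/6J mice without such a sort, while the sample records give C57BL/6N as the strain of both. Cells were either taken at 0 hr without cytokine (unstimulated) or given 200 nM of cytokine for 90 min or 4 hr, which makes 5 groups per cell type. IL-2-REH is a partial agonist, an IL-2 variant made to bind the common γ chain of the receptor less well than IL-2 does. Tregs had 3 libraries in each group and CD8+ T cells 1, so that values for CD8+ T cells carry no replicate error. No group was cultured without cytokine, and the time in culture and the cytokine therefore cannot be told apart in any comparison with unstimulated cells.

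AP-1 is a dimer of basic leucine zipper proteins. FOS proteins cannot pair with each other and bind DNA with a JUN partner, JUN proteins can also pair among themselves, and BATF proteins pair with JUN proteins and act with IRF4 or IRF8. Fos, Fosb, Jun and Junb are immediate early genes: their RNA rises within minutes of receptor or stress signals and decays quickly, and handling and dissociation of tissue also induce them. In T cells, AP-1 is known as the partner of NFAT at cytokine genes, and BATF and JUNB are known for their roles in effector Tregs.

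Libraries held 20201392 to 63903764 reads on transcripts (38201668 to 45189835 in CD8+ T cells). AP-1 members took 0.147 to 0.581% of these reads in Tregs and 0.0269 to 0.217% in CD8+ T cells. The cell types matched their labels: Foxp3, the lineage factor of Tregs, was at 0.482 to 0.999 RPKM in CD8+ T cells and at 65.2 to 252 RPKM in Tregs, and Cd8a was at 103 to 256 RPKM in CD8+ T cells and at 0.0879 to 1.84 RPKM in Tregs. RPKM correct a read count for exon length and for sequencing depth, so that levels of different genes may be compared. Some Treg libraries stood apart from the others of their group. Unstimulated replicate 1 held Crem, a cAMP-responsive repressor of the same zipper class, at 229 RPKM against 7.01 and 7.34 RPKM in unstimulated replicates 2 and 3. Unstimulated replicate 3 held Hspa1a, an inducible heat shock chaperone, at 400.2 RPKM against 1.87 and 18.4 RPKM in replicates 1 and 2. The libraries numbered 3 held RNA of neutrophil and erythroid markers (52.9 to 215 and 76.0 to 131 RPKM summed over the list) that those numbered 1 and 2 did not (0.0691 to 3.67 and 2.88 to 11.3 RPKM). Replicate numbers came from the labels, which do not say whether libraries of a number came from separate mice, so that p-values measure the spread between these libraries.

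The genes lie on chromosomes 12 (Fos and Batf), 7 (Fosb), 19 (Fosl1), 5 (Fosl2), 4 (Jun), 8 (Junb and Jund) and 1 (Batf3). RefSeq promoter windows of GRCm38.p6 were found for 8 members. The bases before the start of Fos, Junb, Jun and Fosl2 are shown 5′ to 3′, because Fos, Junb and Jun were more than 4-fold lower in every stimulated CD8+ library than in the unstimulated one and Fosl2 was not. Capitals mark matches to TGACG (the half-site bound by CREB and ATF factors), TGACNTCA (a full site for JUN and ATF dimers, with any base at N) and TATAAA, searched on both strands.
Fos, chr12:85473640-85473889, plus strand: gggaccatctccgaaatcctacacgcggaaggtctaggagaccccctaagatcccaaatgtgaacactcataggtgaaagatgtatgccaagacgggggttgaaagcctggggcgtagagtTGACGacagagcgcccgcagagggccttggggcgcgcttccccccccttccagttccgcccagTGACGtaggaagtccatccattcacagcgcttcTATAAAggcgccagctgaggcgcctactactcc
Junb, chr8:84978749-84978998, minus strand: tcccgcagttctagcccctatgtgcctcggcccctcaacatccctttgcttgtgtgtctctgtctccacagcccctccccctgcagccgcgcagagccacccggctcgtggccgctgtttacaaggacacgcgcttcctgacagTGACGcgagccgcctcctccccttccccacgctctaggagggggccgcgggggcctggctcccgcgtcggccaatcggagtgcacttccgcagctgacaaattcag
Jun, chr4:95052223-95052472, minus strand: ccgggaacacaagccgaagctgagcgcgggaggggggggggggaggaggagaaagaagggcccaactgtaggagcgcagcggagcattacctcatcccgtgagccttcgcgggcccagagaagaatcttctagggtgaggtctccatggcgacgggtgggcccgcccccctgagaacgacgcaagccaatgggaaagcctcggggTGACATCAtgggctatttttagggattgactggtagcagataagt
Fosl2, chr5:32136222-32136471, plus strand: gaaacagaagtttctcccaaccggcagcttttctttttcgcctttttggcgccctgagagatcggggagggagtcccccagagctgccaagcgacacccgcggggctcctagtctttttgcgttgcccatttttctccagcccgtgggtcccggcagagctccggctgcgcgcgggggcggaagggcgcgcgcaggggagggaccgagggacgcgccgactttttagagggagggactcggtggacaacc

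TGACG was found at 129 and 66 bases before the start of Fos, at 106 bases before that of Junb and at 98 bases before that of Batf. The window of Fosb also held it, but the start that defines this window lies inside the transcript counted here, so that the match falls in its first exon. Of the 8 member windows 4 held TGACG, Fosb included, and 17.8% of 32851 windows of all genes. TGACATCA stood 45 bases before the start of Jun, and the pattern TGACNTCA, which can contain TGACG, was held by 7.49% of all windows. The window of Fosl2 held no match to the motifs searched. The TRE TGACTCA and the CArG box, the site of SRF, had no match in the 250 bases of any member (4.46% and 1.47% of all windows). TTCNNNGAA, a STAT site, was matched in Batf3 alone among the members (7.02% of all windows). Bases further than 250 before each start were not searched, so a missing match does not mean that a member lacks the site. A match describes letters in the reference and no binding was measured.

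Junb was the most abundant member in RPKM in 19 of 20 libraries, and Jund in the other, that of CD8+ T cells after 4 hr of IL-2. In unstimulated Tregs, Junb was at 606 ± 114 RPKM (SD, n = 3) and made up 44.9 to 54.9% of the summed RPKM of all members. Fos followed with 206 ± 117 RPKM, Jun with 158.6 ± 141.5, Jund with 103 ± 15.9, Fosb with 66.3 ± 39.4, Batf with 39.1 ± 8.03 and Fosl2 with 38.4 ± 54.6 RPKM (SD, n = 3). Of these 7, only Junb stood clear of its neighbours in this order, since its lowest library, at 531 RPKM, was above the highest value of Fos, at 341 RPKM. Fosl1 (0.146 ± 0.0751 RPKM) and Batf3 (0.167 ± 0.113 RPKM) were close to the limit of detection, with 3 to 92 and 0 to 14 reads per library over the series and 4 libraries without a read of Batf3. Fosl1 overlaps Ccdc85b, Jun overlaps the antisense gene Junos and Jund the antisense gene Gm11175, and since the use of strand in counting is not given in the sources used here, reads in these overlaps are uncertain.

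**Figure D1:**
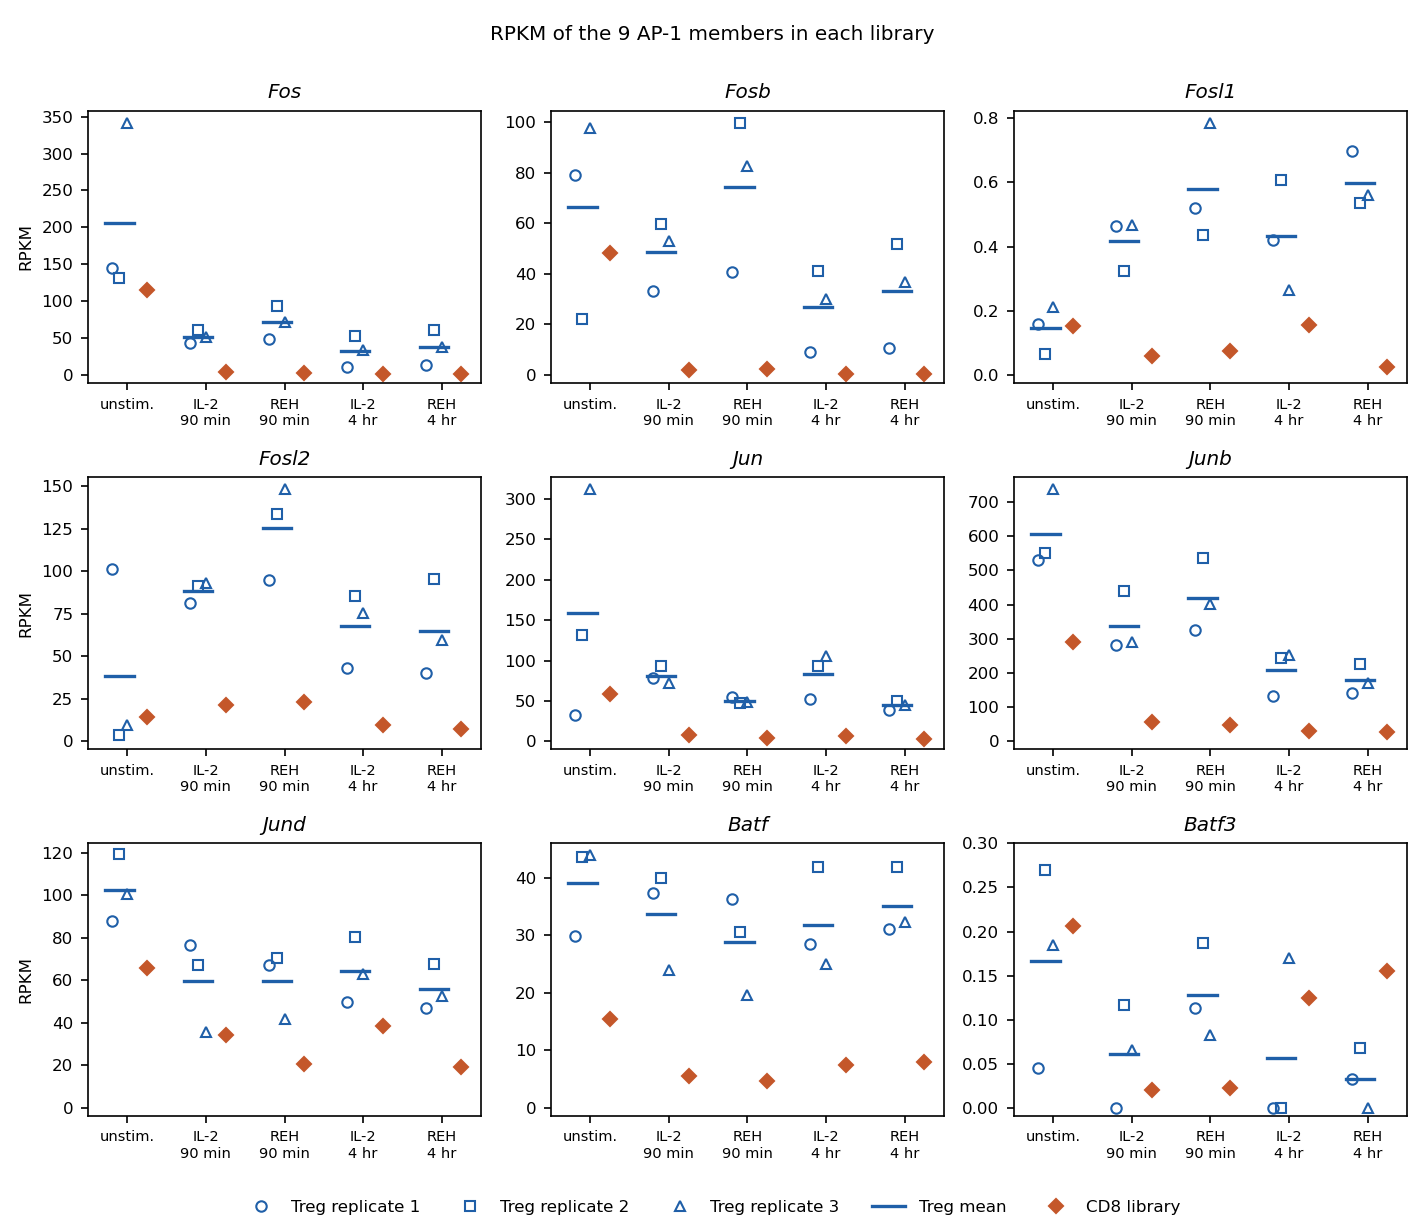
RPKM (linear axes, 1 panel per member) in the 5 groups, with open symbols for the 3 Treg replicates, a bar for their mean and a filled diamond for the CD8+ library. CD8+ T cells held 2.01 to 3.54 RPKM of Fos and Fosb after 90 min while Tregs held 43.7 to 99.6 RPKM of both, with the exception of Fosb in Treg replicates 1 (33.3 and 40.6 RPKM), and unstimulated Treg replicate 1 was high in Fosl2 and low in Jun.

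Whether stimulation changed AP-1 RNA in Tregs was asked by comparing each cytokine and time with unstimulated cells. Fos and Junb were lower after 4 hr of IL-2 and Junb was lower after 4 hr of IL-2-REH. No member rose by the same test. Fos RNA was at 146, 132 and 341 RPKM in unstimulated replicates 1, 2 and 3. After 90 min it was at 43.7, 60.4 and 51.1 RPKM with IL-2 and at 48.5, 93.2 and 72.5 RPKM with IL-2-REH. After 4 hr it was at 10.7, 52.3 and 33.6 RPKM with IL-2 and at 13.3, 61.0 and 38.6 RPKM with IL-2-REH. Every stimulated library was thus below every unstimulated one for this gene, which encodes the prototype partner of JUN, and at 4 hr the libraries numbered 1 were the lowest. The log2 fold change of Fos at 4 hr was -2.66 ± 0.61 (SE, adjusted p = 0.0367, edgeR's quasi-likelihood test with Benjamini-Hochberg adjustment) with IL-2 and -2.50 ± 0.60 (adjusted p = 0.105, edgeR) with IL-2-REH. At 90 min it was -1.86 ± 0.59 (adjusted p = 0.189, edgeR) and -1.38 ± 0.58 (adjusted p = 0.407, edgeR). With the replicate number as a block, used because same-numbered libraries deviated together from their group means, Fos also passed after 90 min of IL-2 (-1.88, adjusted p = 0.0304, edgeR) and after 4 hr of IL-2-REH (-2.69, adjusted p = 0.0049, edgeR).

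Junb RNA fell at 4 hr with both cytokines. It was at 531, 550.4 and 737 RPKM in unstimulated replicates 1, 2 and 3, at 134, 243 and 253 RPKM after 4 hr of IL-2, and at 141, 226 and 170.2 RPKM after 4 hr of IL-2-REH. Both 4 hr groups lay below the unstimulated group without overlap. The log2 fold change of Junb was -1.46 ± 0.32 (SE, adjusted p = 0.0332, edgeR) with IL-2 and -1.78 ± 0.33 (adjusted p = 0.0382, edgeR) with IL-2-REH. At 90 min Junb was at 282, 439 and 289.9 RPKM with IL-2, below all unstimulated libraries, and at 326, 535 and 401 RPKM with IL-2-REH, where replicate 2 overlapped them. Its log2 fold changes at 90 min were -0.70 ± 0.32 and -0.38 ± 0.32 and did not pass (adjusted p = 0.355 and 0.657, edgeR).

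Among all 14992 genes tested, 2.26% were called after 4 hr of IL-2, 0.314% after 4 hr of IL-2-REH, 0.854% after 90 min of IL-2 and 0.0934% after 90 min of IL-2-REH (edgeR, adjusted p under 0.05). Of the 8 members that passed the filter on low counts, which left out Batf3, 2, 1, 0 and 0 were called in the same order. At an unadjusted p under 0.05 in edgeR, 4 members passed in each 90 min comparison. Of the 14992 genes, 2068 and 1702 did so with IL-2 and IL-2-REH. DESeq2 called 2 members after 90 min of IL-2 (Fos and Fosl1) and 1 after 90 min of IL-2-REH (Fosl1). Of all 23992 gene symbols, taken without the filter, it called 552 (2.30%) and 109 (0.454%). DESeq2 shares are over this number throughout, so they do not have the base of the edgeR shares. With the block, 3 members were called after 4 hr of IL-2 and 4 after 4 hr of IL-2-REH, while the share of all genes called rose to 6.94% and 3.03%. The median log2 fold change over the members tested was -0.71 after 4 hr of IL-2 and -0.98 after 4 hr of IL-2-REH, against -0.0019 and 0.01 over all genes tested.
Of the members with a mean of at least 1 RPKM in Tregs, 3 of 7 (Fos, Junb and Jund) lay below the unstimulated group without overlap at both times of IL-2, where 13.7% and 15.4% of 10473 genes did not overlap in either direction. With IL-2-REH these were 2 of 7 at 90 min (Fos and Jund, 10.6% of genes) and again Fos, Junb and Jund at 4 hr (14.8% of genes).

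These calls rested on few libraries and on the spread shared over all Treg groups. A fit of only the groups compared called 0 members in both 4 hr comparisons, with log2 fold changes of -2.65 for Fos (adjusted p = 0.188, edgeR) and -1.45 for Junb (adjusted p = 0.182, edgeR) after IL-2 and -1.78 for Junb after IL-2-REH (adjusted p = 0.156, edgeR). Leaving out unstimulated replicate 3, the library with high heat shock RNA, left 0 members called at 4 hr with either cytokine, with log2 fold changes of -2.07 for Fos (adjusted p = 0.170, edgeR) and -1.28 for Junb (adjusted p = 0.133, edgeR) after IL-2 and -1.59 for Junb after IL-2-REH (adjusted p = 0.178, edgeR). Leaving out 1 library at a time, Fos was called after 4 hr of IL-2 without unstimulated replicate 1 or 2, and Junb without unstimulated replicate 1 or without replicate 3 of the IL-2 group, so that any of the other libraries of the 2 groups ended these calls when left out. Junb after 4 hr of IL-2-REH kept its call without unstimulated replicate 1 and lost it without any other library of the 2 groups. The direction held throughout, with log2 fold changes from -3.36 to -2.07 for Fos and from -1.71 to -1.23 for Junb after IL-2 and from -2.06 to -1.59 for Junb after IL-2-REH. Macrophage marker RNA was also lower at 4 hr than in the unstimulated library of the same number. Over the unstimulated libraries its order was not that of Fos or of Junb. An order over 3 libraries cannot show whether this RNA had a part in the fall of Fos and Junb. The 7 markers summed to 15.5, 88.9 and 64.6 RPKM in unstimulated replicates 1, 2 and 3 and to 7.61 to 34.6 RPKM over the 6 libraries at 4 hr, with C1qa, C1qb and C1qc at 0 in 1 of those libraries each. Of these markers 0 were called by edgeR without the block in either 4 hr comparison, 2 in each passed at an unadjusted p under 0.05, DESeq2 called 0, and with the block 5 and 4 were lower after 4 hr of IL-2 and of IL-2-REH. Of 5 heat shock genes, 0 were called by edgeR without the block after 4 hr of either cytokine, 3 in each passed at an unadjusted p under 0.05, DESeq2 called 3 in each, and with the block 1 was lower after IL-2 and 0 after IL-2-REH. Among all 14992 genes, 2658 and 1999 passed unadjusted after 4 hr of IL-2 and of IL-2-REH. DESeq2 called 4.27% and 2.41% of the 23992 unfiltered symbols there. The part of either list in the fall of Fos and Junb was not tested. In bulk samples, fewer cells of a type and less RNA per cell cannot be told apart.

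The other JUN genes differed between libraries more than Junb. Jun RNA was at 32.5, 132 and 312 RPKM in unstimulated replicates 1, 2 and 3, a span that took in all 12 stimulated Treg libraries (39.1 to 106 RPKM). Jun encodes the founding AP-1 subunit and the antisense partner Junos shares its locus. Its log2 fold changes were -0.80 ± 0.52 at 90 min and -0.83 ± 0.52 at 4 hr with IL-2, and -1.49 ± 0.53 and -1.81 ± 0.53 with IL-2-REH (SE, adjusted p from 0.159 to 0.524, edgeR). Without unstimulated replicate 1 they ran from -1.26 to -2.28 and all 4 passed (adjusted p from 0.0042 to 0.0438, edgeR), and without unstimulated replicate 3 they turned to 0.24 and 0.22 with IL-2. Jund, which is held to be expressed more constantly than the other JUN genes, was at 87.9, 119 and 100.5 RPKM in unstimulated Tregs and at 35.8 to 80.5 RPKM in the 12 stimulated libraries, all of them lower. The log2 fold change of Jund ran from -0.60 ± 0.23 to -0.87 ± 0.23 over the 4 comparisons (adjusted p from 0.132 to 0.396, edgeR). With the block it passed after 4 hr of IL-2-REH (-0.88, adjusted p = 0.0419, edgeR).

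**Figure D2:**
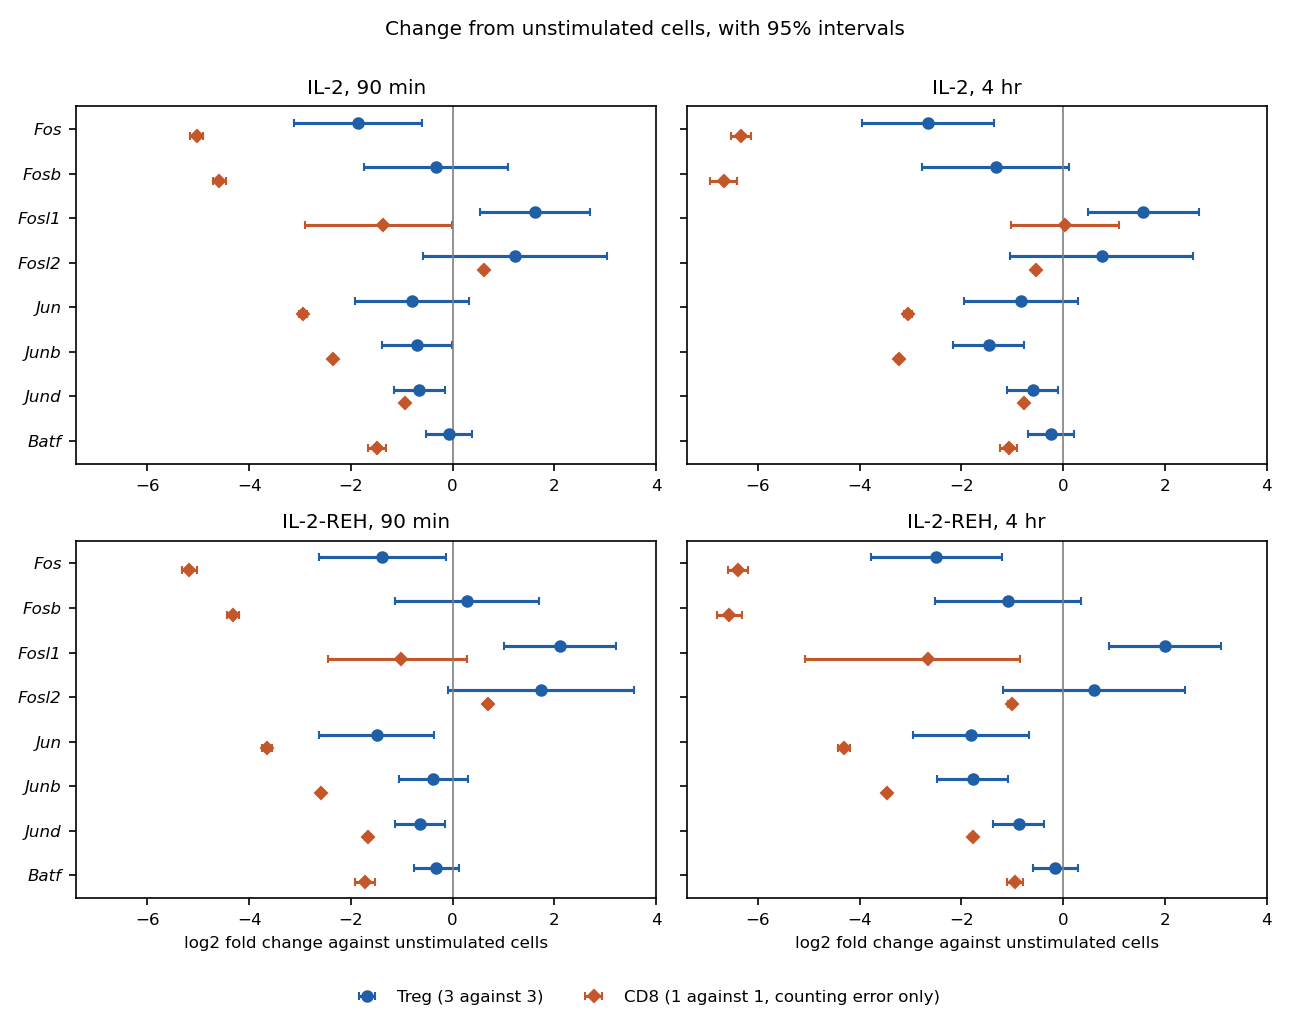
Log2 fold change against unstimulated cells (x axis) of 8 members (y axis), with circles and 95% intervals of the edgeR fit for Tregs and diamonds with exact 95% counting intervals for the single pair of CD8+ libraries, 1 panel per cytokine and time. Tregs lay between -2.66 for Fos and 2.11 for Fosl1, and CD8+ T cells reached -6.67 for Fosb.

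The FOS genes other than Fos went their own ways in Tregs. Fosb, which encodes an activator and a shorter, long-lived ΔFOSB form, was at 78.9, 22.1 and 97.9 RPKM in unstimulated replicates 1, 2 and 3. After 90 min it was at 33.3, 59.9 and 53.1 RPKM with IL-2 and at 40.6, 99.6 and 82.7 RPKM with IL-2-REH, and after 4 hr at 9.20, 41.2 and 29.96 RPKM and at 10.9, 51.9 and 36.8 RPKM. All groups overlapped the unstimulated one, in which replicate 2 was the lowest. No log2 fold change passed, from -1.33 ± 0.67 after 4 hr of IL-2 to 0.28 ± 0.66 after 90 min of IL-2-REH (adjusted p from 0.322 to 0.905, edgeR), and the latter was -0.04 with the block.

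Fosl2 (FRA-2) RNA depended on 1 library. It was at 101 RPKM in unstimulated replicate 1 and at 3.93 and 9.81 RPKM in unstimulated replicates 2 and 3. With IL-2 it was at 81.4, 91.2 and 93.2 RPKM after 90 min and at 43.3, 85.6 and 75.8 RPKM after 4 hr. With IL-2-REH it was at 95.2, 134 and 148 RPKM after 90 min and at 40.5, 95.4 and 59.6 RPKM after 4 hr. All 12 stimulated libraries were therefore above unstimulated replicates 2 and 3 by more than 4 times, and 10 of them were below unstimulated replicate 1. The log2 fold changes over all libraries were 1.23 ± 0.84, 0.75 ± 0.83, 1.74 ± 0.85 and 0.61 ± 0.83 for IL-2 at 90 min and 4 hr and IL-2-REH at 90 min and 4 hr (SE, adjusted p from 0.455 to 0.812, edgeR). Without unstimulated replicate 1, the library with high Crem, they were 3.88 ± 0.54, 3.40 ± 0.52, 4.39 ± 0.55 and 3.26 ± 0.52 (adjusted p from 0.000508 to 0.00391, edgeR). This exclusion was 1 of the settings tried for every result, and without the same library 6.93 to 12.9% of all genes were called in the 4 comparisons. In same-numbered pairs the RPKM of Fosl2 after 90 min of IL-2 was 0.804 times that of unstimulated cells in number 1, 23.2 times in number 2 and 9.504 times in number 3.

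Fosl1 (FRA-1) was low in all libraries but its stimulated Treg groups were above the unstimulated one. It was at 0.160, 0.0643 and 0.212 RPKM (17, 8 and 22 reads) in unstimulated Tregs and at 0.266 to 0.786 RPKM (15 to 92 reads) in the 12 stimulated libraries. Its log2 fold change was 1.62 ± 0.51 and 1.57 ± 0.51 at 90 min and 4 hr of IL-2, and 2.11 ± 0.51 and 2.0 ± 0.51 with IL-2-REH (SE, adjusted p from 0.126 to 0.287, edgeR). With the block it passed at 4 hr of IL-2 (1.73, adjusted p = 0.0435, edgeR) and of IL-2-REH (2.07, adjusted p = 0.0313, edgeR). Batf, the partner of IRF4 in T cells, held its level most closely. It was at 29.9, 43.5 and 44.0 RPKM in unstimulated Tregs and at 19.5 to 41.8 RPKM in stimulated ones, with log2 fold changes from -0.32 ± 0.21 to -0.08 ± 0.21 (adjusted p from 0.569 to 0.928, edgeR). Over both cytokines and times the 95% intervals of Batf stayed between -0.77 and 0.37. Batf3 did not pass the filter.

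From 90 min to 4 hr, 0 of the 8 members passed with either cytokine in Tregs, as did 0% of all genes in both comparisons (edgeR, adjusted p under 0.05). At an unadjusted p under 0.05, 1 member passed in each (Junb, log2 fold change -0.76 ± 0.32 for IL-2 and -1.40 ± 0.32 for IL-2-REH). At that threshold 2556 and 2187 of 14992 genes passed, so members did not pass more often than genes at large. DESeq2 called Junb with IL-2-REH, beside 1.05% of the 23992 unfiltered symbols. Between these times the log2 fold change of Fos was -0.81 ± 0.57 for IL-2 and -1.11 ± 0.58 for IL-2-REH, and that of Fosb was -0.995 ± 0.67 and -1.36 ± 0.67, without passing (adjusted p from 0.366 to 0.472, edgeR). In same-numbered pairs, Fos, Fosb, Fosl2 and Junb were lower at 4 hr in all 3 pairs with either cytokine. The share of all genes that did so was not counted.

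Whether IL-2-REH acted on AP-1 RNA as IL-2 did was asked at each time. In Tregs 0 of 8 members were called at 90 min or at 4 hr (edgeR, adjusted p under 0.05), where 0.0133% and 0.0267% of all genes were called. At an unadjusted p under 0.05, 0 members passed, beside 149 and 559 of 14992 genes. DESeq2 called 0 members, and 0.0584% and 0.242% of the 23992 unfiltered symbols. Jun had the clearest separation. At 90 min Jun was at 78.1, 93.3 and 72.9 RPKM with IL-2 and at 54.6, 48.1 and 49.2 RPKM with IL-2-REH. At 4 hr it was at 52.3, 93.6 and 106 RPKM with IL-2 and at 39.1, 50.2 and 44.7 RPKM with IL-2-REH. All 3 IL-2-REH libraries were below all 3 IL-2 libraries at both times. The log2 fold change of Jun was -0.70 ± 0.52 (95% interval -1.81 to 0.42) at 90 min and -0.99 ± 0.52 (-2.11 to 0.13) at 4 hr, and its change between the times was -0.29 ± 0.73. These standard errors come from a fit over all Treg groups, of which the unstimulated one had the widest spread in Jun. A fit of only the groups compared called 0 of 13569 genes at 90 min and 0 of 13589 at 4 hr, so Jun was not called there either. With 3 libraries against 3 an exact test cannot give a p below 0.1. Fosl2 was higher with IL-2-REH at 90 min without overlap (95.2 to 148 against 81.4 to 93.2 RPKM, log2 fold change 0.52 ± 0.83) and overlapped at 4 hr. Among genes, 5.95% did not overlap between the cytokines at 90 min and 8.71% at 4 hr, beside 2 and 1 of the 7 members.

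For the other members the intervals of the fit without the block leave room for differences in either direction. On the log2 scale the 95% interval of IL-2-REH against IL-2 ran from -0.75 to 1.70 for Fos, -0.81 to 2.04 for Fosb and -0.36 to 1.0 for Junb at 90 min. At 4 hr it was -1.06 to 1.39 for Fos, -1.18 to 1.67 for Fosb and -0.99 to 0.37 for Junb. Same-numbered pairs had 1 direction at both times for Fos and Fosb, and also for Jun, which was lower with IL-2-REH. At 90 min Fosl1, Fosl2 and Junb were also higher in all 3 pairs and Batf was lower. At 4 hr Jund was lower in all 3 pairs and Batf higher. The share of all genes with all 3 pairs in 1 direction was not counted. On the log2(RPKM + 1) scale Fosb was higher with IL-2-REH by 0.28, 0.72 and 0.63 in pairs 1, 2 and 3 at 90 min and by 0.22, 0.33 and 0.29 at 4 hr, and Fos was higher in all 3 pairs at both times. With the block the log2 fold change of Fosb was 0.56 ± 0.55 at 90 min and 0.24 ± 0.55 at 4 hr and that of Fos 0.41 ± 0.39 and 0.17 ± 0.39 (adjusted p from 0.953 to 0.99989, edgeR), and 0 members were called. The narrowest intervals without the block were those of Batf (-0.69 to 0.20 and -0.36 to 0.54) and Jund (-0.48 to 0.51 and -0.77 to 0.23). The change of the difference between the cytokines from 90 min to 4 hr was called for 0 of 8 members and 0% of all genes, also with DESeq2, and 0 members passed at an unadjusted p under 0.05. STAT5 targets served as a reference for the strength of the cytokines. Between the cytokines edgeR called 0 of 4 at either time, with or without the block. At an unadjusted p under 0.05, 3 and 2 of the 4 passed at 90 min and 4 hr, beside 149 and 559 of 14992 genes. DESeq2 called 1 at each time, beside 0.0584% and 0.242% of 23992 symbols. Against unstimulated cells Cish, 1 of these targets and a feedback inhibitor, rose by 2.12 ± 0.19 with IL-2 and by 1.10 ± 0.18 with IL-2-REH at 90 min on the log2 scale (adjusted p = 7.56e-05 and 0.0343, edgeR).

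**Figure D3:**
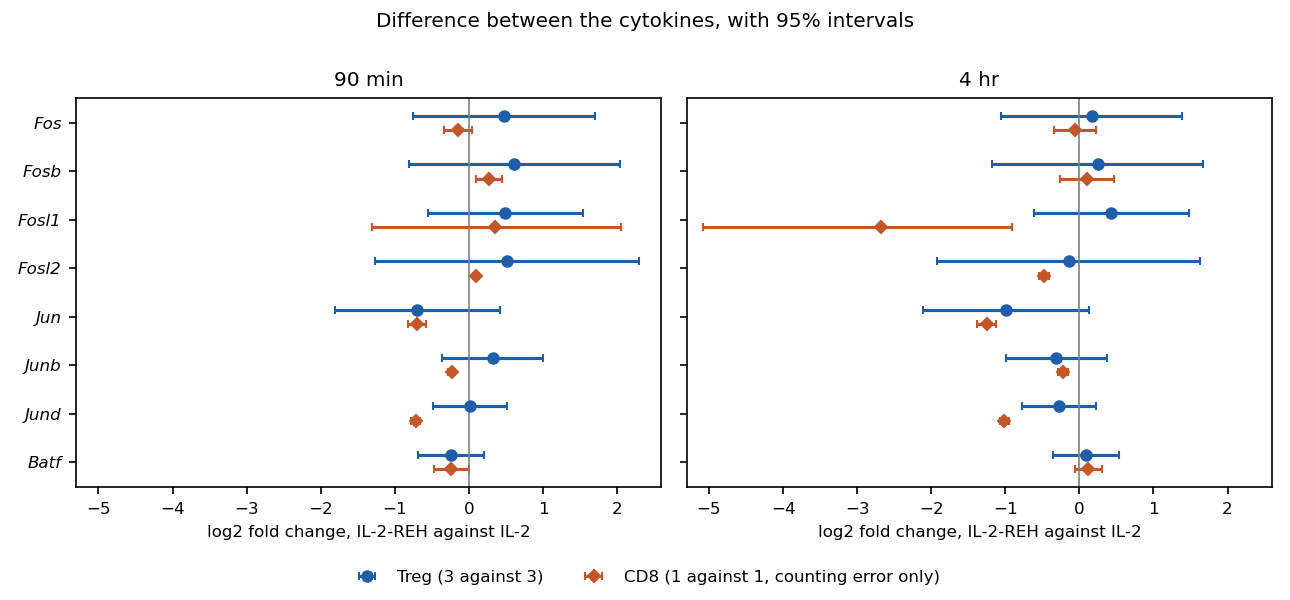
Log2 fold change of IL-2-REH against IL-2 (x axis) for 8 members (y axis) at 90 min and 4 hr, with circles and 95% intervals of the edgeR fit for Tregs and diamonds with exact 95% counting intervals for CD8+ T cells. Jun lay below 0 in both cell types and at both times, from -0.70 to -1.25, and the Treg intervals of all members included 0.

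In CD8+ T cells the early genes were far lower after stimulation. Fos was at 116 RPKM (14870 reads) in unstimulated cells, at 3.54 and 3.20 RPKM (515 and 417 reads) after 90 min of IL-2 and IL-2-REH, and at 1.44 and 1.38 RPKM (204 and 210 reads) after 4 hr. Fosb went from 48.4 RPKM to 2.01 and 2.42 RPKM at 90 min and to 0.477 and 0.512 RPKM at 4 hr. Each stimulated library was below the unstimulated one in both genes, and the cytokines lay close together. In reads per mapped reads, Fos was 32.7 and 36.1 times lower at 90 min and 80.4 and 83.5 times lower at 4 hr with IL-2 and IL-2-REH. Counting error alone put the log2 ratio of Fos between -5.16 and -4.90 at 90 min of IL-2 and between -6.54 and -6.13 at 4 hr.

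Jun went from 59.3 RPKM to 7.71 RPKM with IL-2 and 4.74 RPKM with IL-2-REH at 90 min, and to 7.14 and 2.998 RPKM at 4 hr. Junb went from 289 RPKM to 56.3 and 47.9 RPKM at 90 min and to 30.8 and 26.4 RPKM at 4 hr. Jund was at 65.8 RPKM unstimulated, at 34.3 and 38.6 RPKM after 90 min and 4 hr of IL-2 and at 20.8 and 19.1 RPKM after IL-2-REH. Batf was at 15.5 RPKM unstimulated and at 4.69 to 8.004 RPKM in the 4 stimulated libraries. Fosl2 was the exception, with 14.3 RPKM unstimulated, 21.7 and 23.2 RPKM at 90 min and 9.86 and 7.08 RPKM at 4 hr of IL-2 and IL-2-REH, so that it was higher at 90 min and lower at 4 hr than in unstimulated cells. Fosl1 (0.0243 to 0.156 RPKM, 3 to 18 reads) and Batf3 (0.0202 to 0.206 RPKM, 1 to 9 reads) were too low to compare.

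On the log2(RPKM + 1) scale, Fos, Fosb, Jun and Junb were past a 4-fold decrease in all 4 comparisons with unstimulated cells and no member was past a 4-fold increase. That is 4 of the 7 members with a mean of at least 1 RPKM, where 0.489% and 0.539% of 10021 genes were past 4-fold in either direction after 90 min and 4 hr of IL-2 and 0.559% and 0.599% after IL-2-REH. The scale understates the change of genes that end near 0. The median over these 7 members was -2.34 and -2.89 for IL-2 at 90 min and 4 hr and -2.57 and -3.41 for IL-2-REH, while the median over all genes was -0.12 to -0.02. Macrophage markers summed to 40.6 RPKM in the unstimulated library and to 13.4 to 21.0 RPKM in the others, and B cell markers to 12.8 and 3.81 to 5.44 RPKM. CD8 markers were also highest in the unstimulated library (728 RPKM, 282 to 493 RPKM in the others), as were T cell markers (751 RPKM, 411 to 486 RPKM). The part of these lists in the ratios was not tested. With 1 library per group no test was possible, and no ratio has a replicate check.

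Between the cytokines, 0 of 7 members were past 4-fold in CD8+ T cells at 90 min or 4 hr, as were 0.0699% and 0.289% of genes. Jun was lower with IL-2-REH at both times, 1.63 times at 90 min and 2.38 times at 4 hr in reads per mapped reads, and Jund 1.65 and 2.02 times. The counting intervals of the log2 ratio of Jun were -0.82 to -0.59 and -1.38 to -1.12. Fos and Fosb lay close together, with log2 ratios of -0.15 and 0.27 at 90 min and -0.05 and 0.10 at 4 hr. The same libraries differed in the STAT5 target Cish, which was at 30.6 and 26.1 RPKM after 90 min and 4 hr of IL-2 and at 2.47 and 2.45 RPKM after IL-2-REH, beside 1.87 RPKM in unstimulated cells.

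The cell types were then set side by side in the same condition. A member was counted when the CD8+ library lay outside the range of the 3 Treg libraries and differed from their mean more than 2-fold. In unstimulated cells 2 of 7 members met this, with 14.8% of 10458 genes: Junb (289 RPKM in CD8+ T cells, 531 to 737 in Tregs) and Batf (15.5 RPKM, 29.9 to 44.0). Fos was 1.78 times higher in the Treg mean than in CD8+ T cells, Fosb 1.37 times and Jund 1.56 times, and the Treg range of Fosb, Jun and Fosl2 took in the CD8+ library. For Jun and Fosl2 this rested on Treg replicate 1. Without it the count was 5 of 7, with Fos, Jun and Fosl2 added, and Fosl2 was then higher in CD8+ T cells (14.3 RPKM) than in Tregs (3.93 and 9.81 RPKM). By TMM-scaled CPM, and also without Treg replicate 3, the count was 1 (Batf). The share of all genes was not counted in these settings, and a range over fewer libraries is narrower for every gene.
After stimulation all counted members were lower in CD8+ T cells. At 90 min these were 6 of 7 with IL-2 (16.8% of genes) and 7 of 7 with IL-2-REH (17.2% of genes), and at 4 hr 6 of 7 with IL-2 (17.6% of genes) and 7 of 7 with IL-2-REH (17.8% of genes), Jund being the one not counted with IL-2. The distance was widest for Fosb, whose Treg mean was 24.3 and 30.7 times the CD8+ value at 90 min of IL-2 and IL-2-REH and 56.1 and 64.8 times at 4 hr. For Fos it was 14.6, 22.3, 22.4 and 27.2 times in the same order, for Jun 10.6, 10.7, 11.7 and 14.9 times, and for Fosl2 4.08, 5.41, 6.92 and 9.20 times. Jund differed least, by 1.67 to 2.92 times. Cell type, mouse strain and isolation method differed together, so that they cannot be told apart, and the CD8+ value is a single library in each condition.

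**Figure D4:**
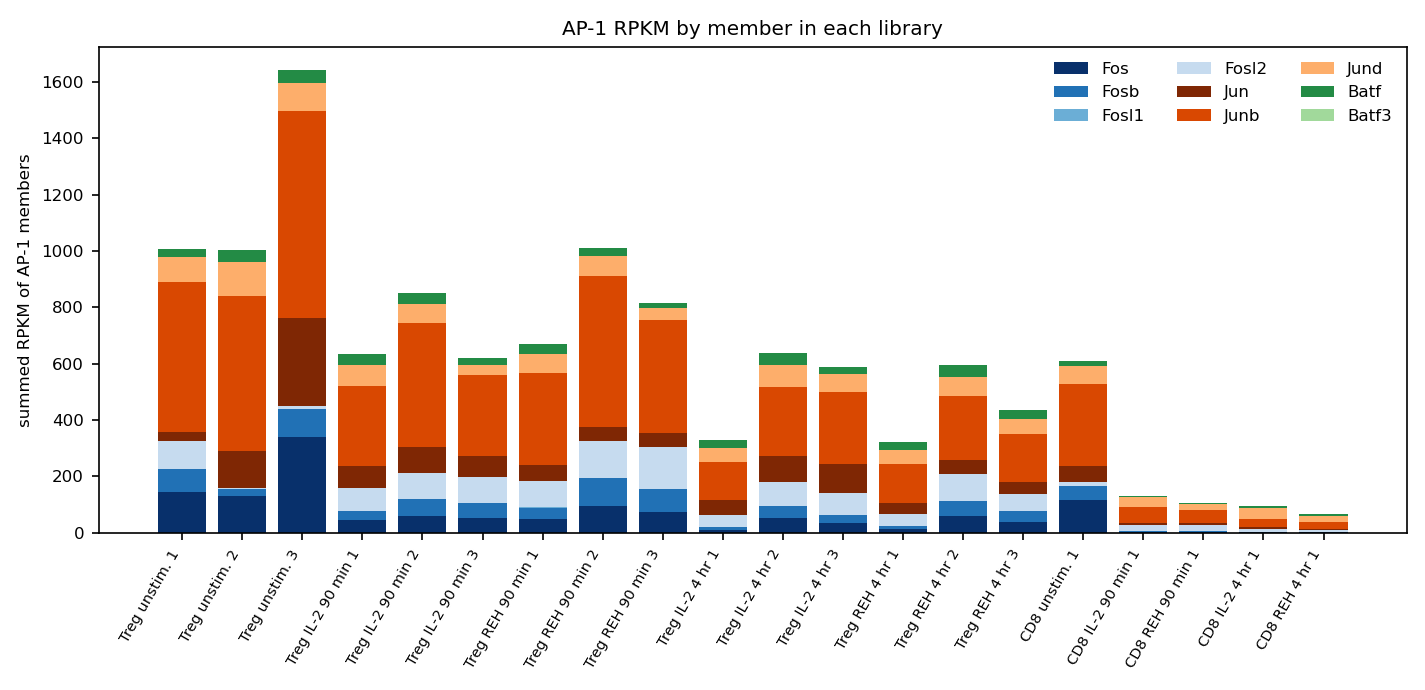
Stacked bars of the RPKM of the 9 members in each of the 20 libraries (y axis, summed RPKM from 0; x axis, cell type, group and replicate). Unstimulated libraries had the highest sum in either cell type, with 1003 to 1642 RPKM in Tregs and 609 RPKM in CD8+ T cells, apart from 1 Treg library of IL-2-REH at 90 min that reached 1011 RPKM.

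The make-up of the family shifted with its sum. JUN genes made up 57.8 to 79.9% of the summed RPKM in Tregs and 68.1 to 79.8% in CD8+ T cells. In Tregs, Fos made up 13.1 to 20.8% of the sum in unstimulated libraries and 3.27 to 10.3% in stimulated ones, while Fosl2 was at 0.392 and 0.597% in unstimulated replicates 2 and 3, at 10.1% in replicate 1 and at 10.7 to 18.2% in stimulated libraries. In CD8+ T cells Fos went from 19.0% to between 1.50 and 2.99%. Over the 20 libraries, Fos, Fosb and Junb moved closely together in log2(RPKM + 1), with Pearson's r of 0.94 to 0.97 between them, and Fosl2 was the member least like the others, with r from 0.15 (Jund) to 0.59 (Fosb). These correlations describe libraries that share cell type, mouse and time, and have no p.

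Among 10458 genes, those most like Fos over the 20 libraries were Ppp1r15a (r = 0.98), Junb (0.97) and Dusp1 (0.96), and those most like Junb were Dusp1 (0.97), Fos and Ppp1r15a. For Fosb they were Sik1 (0.99), Tnfaip3 and Ppp1r15a, and for Fosl2 Vps37b (0.97), Uap1 and Pak1. Jun was most like Ptpn1 (0.90), Iffo2 and P2rx7, Jund like H2-T9 (0.90), H2-T23 and H2-T22, and Batf like Dtnb (0.96), Gimap7 and Adap1. Fosl1 and Batf3 were too low to be ranked.

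Other genes of the pathway were read as lists. Of 18 other immediate early genes, 4 were lower in Tregs after 4 hr of IL-2: Dusp1, which inactivates MAP kinases (-2.45 ± 0.35, adjusted p = 0.00338, edgeR), Klf4 (-3.01 ± 0.48), Dusp2 and the mRNA-decay factor Zfp36. Dusp1 was also lower after 90 min of IL-2 (-1.60 ± 0.34, adjusted p = 0.0447, edgeR) and after 4 hr of IL-2-REH (-2.15 ± 0.35, adjusted p = 0.024, edgeR), each as the only gene of the list. The median log2 fold change of the list was 0.38 and -0.55 for IL-2 and 0.39 and -0.53 for IL-2-REH at 90 min and 4 hr. In CD8+ T cells 7 and 5 of the 18 were past a 4-fold decrease after 4 hr of IL-2 and IL-2-REH. Tnfaip3, an inhibitor of NF-κB signalling, changed most with IL-2 (from 259.6 to 12.1 RPKM) and Dusp1 with IL-2-REH (from 57.4 to 3.95 RPKM), and Nr4a3 was past a 4-fold increase after 90 min of IL-2 (3.40 to 19.0 RPKM).
Of 20 partners and related zipper factors, 19 were tested in Tregs and 1 was called, Bach2, a repressor that competes for AP-1 sites, which was higher after 4 hr of IL-2 (1.05 ± 0.23, adjusted p = 0.0318, edgeR). Irf4, the partner of BATF, was at 22.8, 14.6 and 13.3 RPKM in unstimulated Tregs and at 31.4, 82.7 and 85.0 RPKM after 90 min of IL-2 (log2 fold change 2.14 ± 0.64, adjusted p = 0.165, edgeR). Of 13 upstream kinases and 9 factors that act on the Fos promoter, 0 were called in any Treg comparison with edgeR, with or without the block. At an unadjusted p under 0.05, 2 to 3 kinases and 2 to 3 promoter factors passed in each comparison with unstimulated cells. Of 14992 genes, 1702 to 2658 did so. DESeq2 called 1 kinase after 90 min of IL-2 (2.30% of 23992 unfiltered symbols) and 2 kinases between 90 min and 4 hr of IL-2-REH (1.05%). It also called 1 promoter factor after 4 hr of IL-2-REH (2.41% of these symbols). Among these factors Crem was past a 4-fold increase in CD8+ T cells at 90 min, from 2.12 RPKM to 25.9 RPKM with IL-2 and 18.5 RPKM with IL-2-REH.
Of 10 genes known to be bound by AP-1 or BATF, Il2ra alone was called, higher after 4 hr of IL-2 (1.15 ± 0.27, adjusted p = 0.0407, edgeR), and Il2ra is also a STAT5 target. With the block Gzmb and Tnfrsf9 were higher too and Ifng and Il10 were lower. In CD8+ T cells Ctla4 of this list was past a 4-fold decrease after 4 hr of both cytokines and Ifng after both times of IL-2-REH, and Gzmb was at 1.999 RPKM with IL-2-REH against 31.7 RPKM with IL-2.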

How the data were processed

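RNA was measured by poly(A) RNA-seq in 15 Treg and 5 CD8+ libraries. Per the labels and methods, the authors mapped reads to mm10 with TopHat2 2.1.1 and Bowtie2 2.2.6, and SAMtools 0.1.8 and bedtools 2.25.0 are named in their processing notes. They deposited, for each RefSeq transcript, the count of reads on exons, without normalization, and the RPKM. For each symbol the transcript with most reads was used.

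Treg counts were tested with edgeR 4.0.16 (R 4.3.3; TMM, filterByExpr, glmQLFit, glmQLFTest, 1 mean per group, Benjamini-Hochberg over 14992 genes) and by the alternatives given in the closing section, with DESeq2 1.42.0 and limma 3.58.1 among them. DESeq2 took all 23992 symbols without filterByExpr, and its shares are over that number. The scripts were tested on simulated counts. CD8+ ratios were of RPKM + 1 over genes with a mean of at least 1 RPKM, with exact 95% binomial intervals on reads, which cover counting error only. Same-numbered Treg libraries deviated together from their group means (mean correlation across genes 0.54, lowest 0.12), so the numbers were taken as pairs. Deviations within a group sum to 0, so the mean of -0.26 for different numbers largely follows from this and adds no support. Named genes were all members in each comparison, at most 3 genes per list and comparison with the largest called change, and the 3 genes most like each member. Irf4, Dusp2, Hspa1a, Foxp3, Cd8a, the levels of Crem and Cish in other comparisons and the genes called only with the block were named after their values were seen. The members and lists were chosen with earlier results of these data known. Promoter sequences came from RefSeq (GRCm38.p6), the build that mm10 corresponds to.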

Additional observations from a re-analysis of the deposited data

Results flagged for a closer look

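The sign of the ratios of Fos and Junb was not the same in the 2 cell types when IL-2-REH was set against IL-2. At 90 min, Fos was higher with IL-2-REH in all 3 same-numbered Treg pairs (log2 ratios of RPKM + 1 from 0.15 to 0.62) and lower in the CD8+ pair (-0.11), a distance of -0.53 between the CD8+ ratio and the Treg mean. Junb at 90 min was higher in all 3 Treg pairs (0.21 to 0.47) and lower in the CD8+ pair (-0.23), a distance of -0.55. At 4 hr, Fos was higher in all 3 Treg pairs (0.20 to 0.29) and lower in the CD8+ pair (-0.03), a distance of -0.27. These differences were not tested, since CD8+ T cells had 1 library per group. At both times the counting interval of the CD8+ ratio of Fos included 0 (-0.34 to 0.04 and -0.34 to 0.23), so a difference in direction was not shown for Fos. The share of all genes with such a pattern of signs was not counted.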

How the results depend on the processing

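With the replicate block, the members called rose from 0 to 1 after 90 min of IL-2, where 1.83% of all genes were called. After 4 hr of IL-2-REH they rose from 1 to 4, beside 3.03% of all genes. Fosb after 90 min of IL-2-REH turned to -0.036. The block also added Fosl1 after 4 hr of IL-2 and changed no other call of a member. DESeq2 called 2, 1 and 5 members after 90 min of IL-2, 90 min of IL-2-REH and 4 hr of IL-2-REH, and 1 between 4 hr and 90 min of IL-2-REH. In the same order it called 2.30%, 0.454%, 2.41% and 1.05% of the 23992 unfiltered symbols. A fit of only the groups compared called 0 at 4 hr with either cytokine. The block with unstimulated replicate 1 left out was chosen after seeing the data. It called 5 and 5 members at 90 min and 4 hr of IL-2 and 4 and 6 with IL-2-REH. The same fit called 26.9% and 21.0% of all genes with IL-2 and 25.4% and 16.7% with IL-2-REH. Fosb was at 0.45 after 90 min of IL-2 in this fit. Leaving out libraries gave 0 to 2 and 0 to 4 members at 90 min and 4 hr of IL-2, 0 to 3 and 0 to 5 with IL-2-REH, and 0 to 1 between 4 hr and 90 min of IL-2-REH. Up to 17.3%, 13.4%, 15.7%, 10.7% and 3.96% of all genes were called in the same order. Over the same fits, log2 fold changes that did not pass in the fit over all libraries turned sign. Some of them passed without unstimulated replicate 1: Jun at 90 min and 4 hr of IL-2 (adjusted p = 0.0379 and 0.0438, edgeR) and Fosl2 after 4 hr of IL-2-REH (adjusted p = 0.00391, edgeR). The ranges given here include those fits. After 90 min of IL-2 the members that turned sign were Fosb (-0.95 to 0.15), Jun (-1.26 to 0.24) and Batf (-0.26 to 0.15), after 4 hr of IL-2 Jun (-1.30 to 0.22), and with IL-2-REH Fosb at 90 min (-0.42 to 0.82) and Fosl2 at 4 hr (-0.24 to 3.50). Between the cytokines they were Jund at 90 min (-0.19 to 0.16) and, at 4 hr, Fos (-0.28 to 0.57), Fosb (-0.15 to 0.66), Fosl2 (-0.45 to 0.091) and Batf (-0.0034 to 0.24), and the change of the Jun difference between times (-0.53 to 0.0035).

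In CD8+ T cells a 2-fold threshold added Jun (1 member) between the cytokines at 4 hr. In unstimulated cells, TMM-scaled CPM left 1 member outside the Treg range, a 4-fold threshold 0, and leaving out a Treg replicate 1 to 5, the highest without replicate 1. The share of all genes was not counted for these settings or for the 2-fold threshold. The cause of these changes was not tested beyond the libraries named. Members under 1 RPKM (Fosl1 and Batf3) are limited by depth.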
